A study of Homo sapiens with 13 samples.

Results

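Some accessible regions lay far from any gene start and yet had their centre inside protein-coding sequence. These coding-exon-centred distal regions were chosen by position alone. The centre had to lie in the coding sequence (CDS) of a protein-coding gene of GENCODE release 44, over 2000 bp from the transcription start site (TSS) of any transcript, and over 500 bp from the 3′ end of any protein-coding gene. On chromosomes 1 to 22 the rule kept 2302 of 201148 regions in H82 and 1886 of 169986 in H146, 4188 in all. No measured value entered the rule.

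H82 and H146 are established cell lines of human small cell lung cancer (SCLC), and ATAC-seq, which marks open DNA where a transposase can insert adapters, was run on them. The H82 libraries were 3 from untreated cells and 3 from cells given the SMARCA4 and SMARCA2 inhibitor FHD-286 at 100 nM for 14 days, and the H146 libraries were 4 untreated and 3 treated in the same way. By the study's methods, 3 of the untreated H146 libraries were sequenced in another batch than the treated ones. The regions of a line were pooled over all of its libraries, and a region found in any library was listed, so a region has a start and an end but no height, no library and no treatment. The effect of FHD-286 and the spread between cultures therefore could not be measured here, the depth of the libraries was unknown, and the line cannot be told apart from the number and depth of its libraries or from its DNA copy number. In such bulk material a region open in few cells and one weakly open in many cannot be told apart either. NEUROD1, which marks the subtype of H82, had a region of 7865 bp within 1000 bp of its TSS in H82 and none in H146.

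As background, coding exons are short islands between long introns, richer in G and C than the introns around them, and nucleosomes tend to sit on them. Some exons also carry binding sites for transcription factors and can act as enhancers of their own gene or of a neighbour, and others hold the start of a transcript that is not annotated. Exons that code for repeated or shared protein domains can have close copies elsewhere in the genome, which limits how well short reads can be placed on them.

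The following reference sequences (hg38) show what such regions look like. Each is written 5′ to 3′ on the strand of its gene, with CDS bases in capitals and other bases in lower case. The first set overlapped a region of the other line, and all of its bases are coding. CELSR2 codes for an atypical cadherin, OR2T2 for an olfactory receptor and ZNF142 for a zinc-finger protein.
CELSR2, exon 1, chr1:109252112-109252327, plus strand, 216 bp in H146: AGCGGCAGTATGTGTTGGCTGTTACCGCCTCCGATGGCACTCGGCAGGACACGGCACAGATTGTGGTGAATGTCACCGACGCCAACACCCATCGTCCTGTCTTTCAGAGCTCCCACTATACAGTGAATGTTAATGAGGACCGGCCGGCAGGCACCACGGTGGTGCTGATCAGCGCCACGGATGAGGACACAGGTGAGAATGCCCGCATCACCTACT
OR2T2, exon 4, chr1:248453077-248453348, plus strand, 272 bp in H82: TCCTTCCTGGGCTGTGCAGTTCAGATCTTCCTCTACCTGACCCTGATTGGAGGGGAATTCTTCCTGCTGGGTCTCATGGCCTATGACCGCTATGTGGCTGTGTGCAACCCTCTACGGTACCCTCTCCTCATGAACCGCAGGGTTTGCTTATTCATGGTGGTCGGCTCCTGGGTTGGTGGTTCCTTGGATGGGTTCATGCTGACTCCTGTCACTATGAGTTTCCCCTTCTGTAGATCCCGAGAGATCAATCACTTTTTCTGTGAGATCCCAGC
ZNF142, exon 9, chr2:218642989-218643225, minus strand, 237 bp in H82: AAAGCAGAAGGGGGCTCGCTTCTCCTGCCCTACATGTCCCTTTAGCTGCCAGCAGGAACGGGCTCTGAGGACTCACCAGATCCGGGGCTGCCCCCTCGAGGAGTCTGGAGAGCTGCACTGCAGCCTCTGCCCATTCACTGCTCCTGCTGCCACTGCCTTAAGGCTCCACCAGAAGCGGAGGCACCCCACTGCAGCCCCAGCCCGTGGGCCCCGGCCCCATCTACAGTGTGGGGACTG

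The next set lay in H82 only, in the exons of mucin genes that code for repeated stretches of the secreted or membrane-bound glycoprotein. In both MUC4 sequences the letters recur every 48 bases, and 81.8% and 81.9% of bases matched the base 48 positions further on. In MUC12 the best of the spacings tried, 57 bases, gave 37.2%, near the 35.2% of the CELSR2 sequence. Only short spacings were tried, so a longer repeat in MUC12 would have been missed.
MUC4, exon 2, chr3:195782693-195782905, minus strand, 213 bp: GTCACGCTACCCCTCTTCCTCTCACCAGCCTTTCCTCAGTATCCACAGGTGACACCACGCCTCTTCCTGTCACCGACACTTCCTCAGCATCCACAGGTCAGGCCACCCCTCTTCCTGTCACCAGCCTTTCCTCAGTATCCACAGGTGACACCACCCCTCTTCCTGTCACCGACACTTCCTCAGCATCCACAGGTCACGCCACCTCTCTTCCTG
MUC4, exon 2, chr3:195783956-195784158, minus strand, 203 bp: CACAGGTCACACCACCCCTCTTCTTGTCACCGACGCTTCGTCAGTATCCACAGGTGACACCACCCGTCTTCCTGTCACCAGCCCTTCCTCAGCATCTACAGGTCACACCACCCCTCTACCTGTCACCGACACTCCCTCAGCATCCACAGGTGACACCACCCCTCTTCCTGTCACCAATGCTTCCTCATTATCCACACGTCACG
MUC12, exon 2, chr7:100996128-100996410, plus strand, 283 bp: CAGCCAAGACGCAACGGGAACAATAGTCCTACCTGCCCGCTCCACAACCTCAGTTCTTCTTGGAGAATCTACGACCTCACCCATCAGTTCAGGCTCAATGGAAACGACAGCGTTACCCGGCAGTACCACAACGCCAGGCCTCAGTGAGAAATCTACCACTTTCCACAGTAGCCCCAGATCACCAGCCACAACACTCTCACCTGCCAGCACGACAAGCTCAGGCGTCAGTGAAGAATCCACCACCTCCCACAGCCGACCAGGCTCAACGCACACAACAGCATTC

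The set from H146 only was in CACNA1S, a calcium channel gene of skeletal muscle, and in olfactory receptor genes.
CACNA1S, exon 6, chr1:201089195-201089421, minus strand, 227 bp: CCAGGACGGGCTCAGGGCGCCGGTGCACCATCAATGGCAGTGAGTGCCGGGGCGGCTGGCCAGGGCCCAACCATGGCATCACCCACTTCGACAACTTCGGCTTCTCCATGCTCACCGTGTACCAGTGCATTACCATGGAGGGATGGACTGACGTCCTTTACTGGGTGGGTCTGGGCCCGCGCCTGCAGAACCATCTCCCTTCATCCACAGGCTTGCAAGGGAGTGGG
OR2T1, exon 2, chr1:248406800-248407029, plus strand, 230 bp: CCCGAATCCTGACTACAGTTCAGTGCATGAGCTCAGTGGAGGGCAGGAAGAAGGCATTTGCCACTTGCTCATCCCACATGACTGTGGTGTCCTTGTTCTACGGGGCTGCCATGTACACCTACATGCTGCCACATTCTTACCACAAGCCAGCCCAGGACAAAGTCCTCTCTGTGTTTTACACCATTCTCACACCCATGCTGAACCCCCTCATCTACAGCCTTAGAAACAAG
OR2T27, exon 2, chr1:248650201-248650500, minus strand, 300 bp: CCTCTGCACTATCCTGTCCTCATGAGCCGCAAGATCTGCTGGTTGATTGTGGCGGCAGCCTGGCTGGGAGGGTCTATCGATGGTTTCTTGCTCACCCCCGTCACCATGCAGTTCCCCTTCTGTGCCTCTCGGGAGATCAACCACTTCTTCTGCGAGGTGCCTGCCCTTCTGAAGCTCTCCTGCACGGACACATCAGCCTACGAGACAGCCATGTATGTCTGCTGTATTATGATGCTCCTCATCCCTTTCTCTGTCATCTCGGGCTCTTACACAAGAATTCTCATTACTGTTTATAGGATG

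Further regions are shown because the text returns to them, and were picked after their values were seen. NID1 codes for nidogen, a protein of basement membranes, and its regions held part or all of an exon together with flanking intron bases. REST codes for the repressor of neuronal genes, and the same 262 bp of its last coding exon were listed in both lines.
NID1, exon 7, chr1:236029590-236029804, minus strand, 215 bp in H146: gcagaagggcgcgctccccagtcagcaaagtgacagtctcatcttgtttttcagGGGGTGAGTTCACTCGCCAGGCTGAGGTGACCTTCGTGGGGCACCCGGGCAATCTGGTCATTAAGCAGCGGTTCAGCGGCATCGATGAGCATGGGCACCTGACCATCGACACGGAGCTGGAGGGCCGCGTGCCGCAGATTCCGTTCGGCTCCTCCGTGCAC
NID1, exon 14, chr1:235990883-235991162, minus strand, 280 bp in H146: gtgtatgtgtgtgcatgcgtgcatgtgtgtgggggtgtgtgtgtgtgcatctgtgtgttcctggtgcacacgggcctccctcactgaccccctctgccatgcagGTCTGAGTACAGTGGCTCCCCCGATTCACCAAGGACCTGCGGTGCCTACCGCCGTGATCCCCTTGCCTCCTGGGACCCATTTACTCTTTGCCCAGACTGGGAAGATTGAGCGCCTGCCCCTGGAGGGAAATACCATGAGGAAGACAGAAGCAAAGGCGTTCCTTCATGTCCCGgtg
REST, exon 4, chr4:56930822-56931083, plus strand, 262 bp in both lines: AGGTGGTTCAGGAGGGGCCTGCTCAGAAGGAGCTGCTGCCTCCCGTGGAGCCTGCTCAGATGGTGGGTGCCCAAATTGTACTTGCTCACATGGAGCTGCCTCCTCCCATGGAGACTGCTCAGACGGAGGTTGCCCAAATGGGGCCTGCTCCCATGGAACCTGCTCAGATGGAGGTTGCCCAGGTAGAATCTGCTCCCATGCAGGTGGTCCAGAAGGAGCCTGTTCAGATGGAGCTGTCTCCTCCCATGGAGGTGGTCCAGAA

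Of all regions centred on CDS, 6442 in H82 and 5604 in H146, most lay within 2000 bp of a TSS (4050 and 3645). A further 90 and 73 lay within 500 bp of a gene end, so that 35.7% and 33.7% were kept. Within 500 bp beyond the TSS limit of 2000 bp there were 243 and 199 regions, and within 500 bp short of it 281 and 230. To the nearest TSS the kept regions had a median distance of 5940 bp (H82) and 5937.5 bp (H146). The median share of coding bases in a region was 54.8% (quartiles 32.4% and 80.5%) in H82 and 53.1% (30.9% and 79.0%) in H146. The whole coding segment that held the centre was inside the region for 1330 H82 regions (57.8%) and 1138 H146 regions (60.3%), with a median segment of 154 bp in both lines. The reverse, a region lying wholly inside coding sequence, held for 17.0% of H82 and 16.8% of H146 regions, where the median segment was 1328.5 bp and 1278 bp. Of the canonical transcripts' coding exons, internal ones held 1561 H82 and 1296 H146 centres, last ones 477 and 358, first ones 68 and 56, and genes with a single coding exon 88 and 80. The centres of 108 and 96 regions lay in CDS that the canonical transcript does not use. The distance limits remove centres near gene starts and ends, and eligible exons were not counted by position. These counts therefore cannot show a preference for any exon position.

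The first comparison asked whether regions on coding exons were shared between the lines more often than distal regions on introns, chosen with the same distance limits (67811 in H82 and 55459 in H146). An overlap of at least 1 bp with the other line counted as sharing. In H82, 1313 of 2302 exon regions were shared (57.0%, 95% Wilson interval 55.01 to 59.05), against 53.6% of intron regions, a difference of 3.48 percentage points (jackknife SE over chromosomes 2.21). In H146, 1329 of 1886 were shared (70.5%, 68.4 to 72.5), against 65.3%, a difference of 5.16 points (SE 1.33). Exon regions had the higher share on 14 and on 18 of 22 chromosomes. Neither difference passed the test, a two-sided sign-flip permutation over the 22 chromosomes with Benjamini-Hochberg adjustment over 15 results, with adjusted p = 0.113 in H82 and 0.887 in H146. The test gives each chromosome the same weight. In H146 the mean over chromosomes was 0.474 points, and on chromosome 21, which held 5 exon regions, the difference was -47.3 points. Without that chromosome the differences were 3.92 points in H82 (adjusted permutation p = 0.033) and 5.30 points in H146 (adjusted permutation p = 0.224). The H82 difference minus the H146 difference was -1.68 points (SE 2.28, adjusted permutation p = 0.117), while its unweighted mean over chromosomes was 4.04 points, of the opposite sign. When 50% reciprocal overlap was asked for, the differences came to 0.0033 points in H82 and 0.0524 points in H146. With at least 50% coding bases in place of the centre rule they were -1.08 and 0.139 points. For these differences within a line, the lowest adjusted permutation p under either setting was 0.144. H82 minus H146 passed the threshold under reciprocal overlap (adjusted permutation p = 0.0281). Its pooled value there was -0.0491 points (SE 1.51), but 17 of 22 chromosomes were positive.

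The sharing difference changed sign when regions with like GC content in the window of about 200 bp around their centres were set against each other. The H82 value was then well within its SE, and the H146 value passed the threshold. Averaged over GC classes 5 points wide, the exon minus intron difference was -0.149 points in H82 (SE 1.81, adjusted permutation p = 0.882), with 14 of 22 chromosomes positive. In H146 it was -2.59 points (SE 1.27, adjusted permutation p = 0.0101), with 5 of 22 positive. H82 minus H146 was 2.44 points (adjusted permutation p = 0.0101). Windows of about 1000 bp were not tried for sharing. Sharing climbed with width in both classes. Among H146 regions of 200 to 299 bp, 51.3% of 557 exon regions were shared (47.2 to 55.5) and 38.7% of 13738 intron regions (37.9 to 39.5). Among those of 1000 to 1999 bp the shares were 97.8% and 93.9%, and all 82 exon regions of 2000 bp or more were shared. In H82 the same classes gave 42.7% against 41.5%, and 69.2% against 68.9%, and 88.1% of 135 exon regions of 2000 bp or more against 80.8%. The classes between differed more in H82, with 53.2% against 48.8% at 300 to 499 bp and 66.4% (62.4 to 70.2) against 59.5% (58.8 to 60.3) at 500 to 999 bp. In H146 these were 61.9% against 55.1%, and 84.4% against 82.1%.

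**Figure D1:**
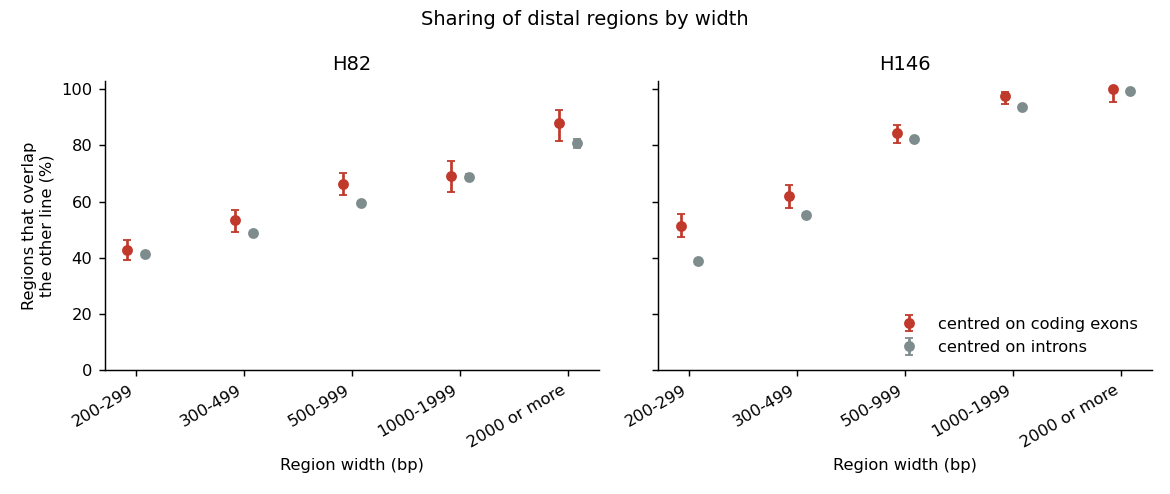
Share of distal regions that overlapped the other line (vertical axis, %) by region width (horizontal axis, bp), for H82 (left) and H146 (right). Red points are regions centred on coding exons, grey points regions centred on introns, and bars are 95% Wilson intervals, which cover counting error only. In H146 the classes lie furthest apart at 200 to 299 bp (51.3% and 38.7%), and the widest exon regions were all shared.

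Shared exon regions mostly sat on the same exon in both lines. Of the 1313 shared H82 regions, 888 (67.6%) overlapped an H146 region that was itself centred on a distal coding exon, which made 892 overlapping pairs. In 856 of these pairs (96.0%) both centres lay in the same coding segment, and the median distance between centres was 23 bp. The region was wider in H146 in 413 pairs and wider in H82 in 224. In 255 pairs both ends were identical. Counted by exon, 3269 coding segments held a centre in either line and 841 in both, which is 37.3% of the 2256 H82 segments and 45.4% of the 1854 H146 segments.

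Regions on coding exons were narrower than those on introns. The median width was 421 bp (quartiles 269 and 781 bp) against 445 bp in H82, a difference of -24 bp (SE 9.60, permutation p = 0.0119, adjusted 0.0298), with exon regions wider on 6 of 22 chromosomes. In H146 it was 425.5 bp (278 and 776 bp) against 455 bp, a difference of -29.5 bp (SE 10.3, permutation p = 0.00478, adjusted 0.0143), with exon regions wider on 7 of 22. The narrowest width in the files, 200 bp, was held by 9.95% of H82 and 8.70% of H146 exon regions, against 6.84% and 5.84% of intron regions. Among regions of at least 500 bp the direction turned, to 44.5 bp in H82 (adjusted permutation p = 0.0977) and 22 bp in H146 (0.624). When regions with at least 50% coding bases were taken in place of the centre rule, the differences were -126 bp (H82) and -134 bp (H146, adjusted permutation p = 2.5e-05 in both). A region much wider than its coding segments cannot reach 50%, so this setting picks narrow regions by itself. Its p-values therefore cannot show that exon regions are narrower. The width differences of H82 and H146 were 5.5 bp apart (SE 11.3, adjusted permutation p = 0.887).

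The widest exon regions were mostly non-coding, and 9.22% to 37.4% of their bases were CDS. The widest of all was an H146 region of 27857 bp on chromosome 14 (104870553 to 104898409), centred on exon 9 of CEP170B, a centrosomal protein gene, with 4662 coding bases. Next came an H82 region of 14557 bp at ENTPD8, which codes for a nucleotide-hydrolysing enzyme, and an H146 region of 14368 bp at KIF26A, an atypical kinesin gene. NOL4L held a region of 13650 bp in H82 and 13760 bp in H146, and the H82 region at NACAD was 12536 bp wide. All 6 overlapped a region of the other line.

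The regions were GC-rich. Mean GC content was 58.1% ± 8.81 (SD over 2302 regions) in H82 and 56.7% ± 9.60 (SD over 1886 regions) in H146, against 48.6% and 47.9% in intron regions. The differences were 9.47 points (SE 0.444) and 8.82 points (SE 0.569), each higher on 22 of 22 chromosomes (sign-flip permutation, p = 1e-05 and adjusted p = 3.75e-05, where 100000 resamples can give no smaller p). All CDS bases that met the distance limits, 17.3 Mb or 50.4% of autosomal CDS, had a GC content of 49.9%, and such intron bases, 961 Mb, 40.8%. The listed regions thus exceeded the sequence they could be drawn from in both classes. Windows of about 200 bp with a GC content of 55% or more made up 29.5% of eligible coding bases and held 73.5% of H82 and 69.1% of H146 exon centres. The GC difference was larger in H82 than in H146 by 0.653 points (SE 0.249, permutation p = 0.0278), which missed the threshold after adjustment (0.0521). With at least 50% coding bases in place of the centre rule, the lines differed by 0.285 points (permutation p = 0.27). Regions rich in CpG, with GC of at least 50% and at least 0.6 of the CpG count that base composition would give, made up 12.5% of H82 and 10.8% of H146 exon regions, against 1.35% and 1.16% of intron regions.

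Per base, distal coding sequence held more region centres than introns did. There were 133 centres per Mb of eligible CDS in H82 (95% Poisson interval 128 to 139) against 70.5 per Mb of eligible intron, a log2 ratio of 0.92 (SE 0.070). In H146 there were 109 per Mb (104 to 114) against 57.7, a log2 ratio of 0.92 (SE 0.073). The ratio was above 0 on 22 of 22 chromosomes in H82 and on 21 of 22 in H146 (sign-flip permutation p = 1e-05, adjusted 3.75e-05). It was below 0 in H146 on chromosome 21, at -0.46. The ratio did not differ detectably between the lines (difference -0.0025, SE 0.054, adjusted permutation p = 0.887). In bases, 9.32% of eligible coding bases and 4.84% of eligible intron bases were covered in H82, and 6.99% and 3.83% in H146.

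The direction turned when sequence of like GC content was compared. When the intron density of each 5-point GC class was applied to the GC classes of coding bases, read in windows of about 200 bp around each base, the log2 ratio was -0.210 in H82 (SE 0.046, permutation p = 3e-05, adjusted 0.00015) and -0.177 in H146 (SE 0.033, permutation p = 7e-05, adjusted 0.000263), with coding sequence the less dense. In windows of about 1000 bp, which take in the surroundings of an exon, it was 0.016 and 0.071 (adjusted permutation p = 0.948 in both). In the windows of about 200 bp, at 45 to 50% GC there were 69.6 centres per Mb of coding bases (59.5 to 80.9) and 97.3 per Mb of intron bases (95.7 to 99.0) in H82. At 60 to 65% GC there were 351 (323 to 379) and 381 (371 to 391). In H146 the values were 62.1 and 71.6 at 45 to 50% GC, and 262 and 316 at 60 to 65%. In these windows the class of 50 to 55% was the one where coding bases held more centres in both lines, 124 against 118 per Mb in H82 and 102 against 91.3 in H146. In the windows of about 1000 bp coding bases were denser in both lines in several classes, and at 45 to 50% GC the values were 96.9 against 94.8 per Mb in H82 and 88.4 against 74.04 in H146. In windows of about 200 bp, density climbed with GC content in both kinds of sequence, from 15.03 centres per Mb of coding bases below 40% GC to 526 per Mb at 70% or more in H82.

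**Figure D2:**
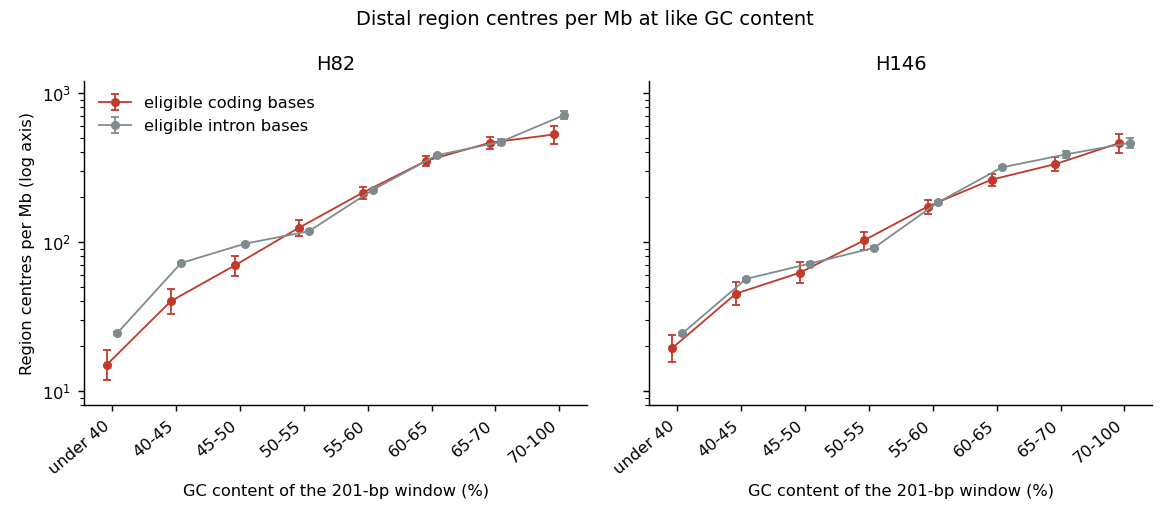
Distal region centres per Mb (vertical log axis) by the GC content of a window of about 200 bp around a base (horizontal axis, %), for H82 (left) and H146 (right). Red is eligible coding sequence, grey eligible intron sequence, and bars are 95% Poisson intervals for counting error. Both curves climb with GC content in both lines, and the coding curve lies below the intron curve at 45 to 50% (69.6 and 97.3 per Mb in H82).

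Exon length went with density too. Coding segments of 500 to 999 bp had the highest density, 186 centres per Mb in H82 (165 to 210) and 161 in H146 (142 to 183). Segments under 100 bp had 88.9 (77.1 to 102) and 74.1 (63.4 to 86.1), and those of 3000 bp or more 101 (81.97 to 123) and 78.2 (61.5 to 98.0). Segments of 100 to 199 bp, the usual size of a vertebrate exon, held the most regions, 883 in H82 (38.4%) and 744 in H146 (39.4%). They also held the most bases, 7.12 of 17.3 Mb of eligible CDS. Their density was 124 and 105 centres per Mb, against 133 and 109 over all eligible CDS. The regions' mean GC content was 54.3% at segments under 100 bp and 62.7% at 500 to 999 bp in H82, and 61.7% and 61.3% at the longer segments, where density was lower. Sharing was 63.6% at 500 to 999 bp and 52.5% under 100 bp in H82, and 76.1% and 64.1% in H146. These values by length are a description and were not tested.

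**Figure D3:**
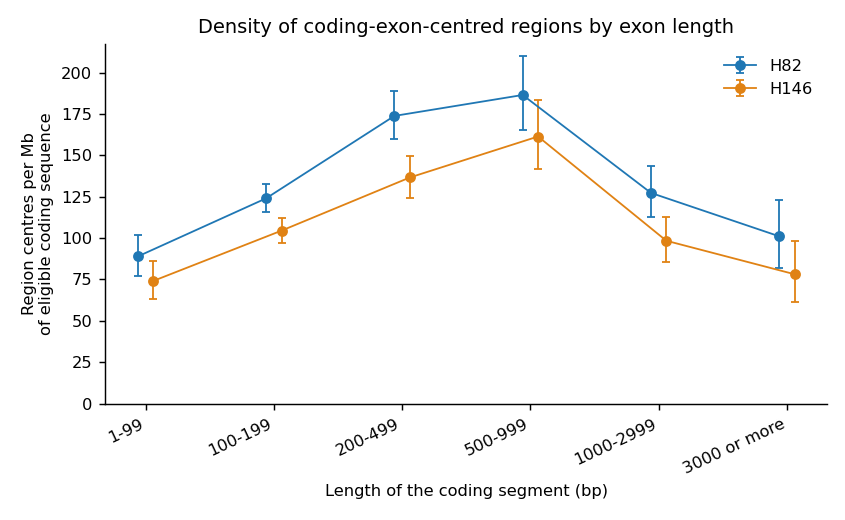
Coding-exon-centred distal regions per Mb of eligible coding sequence (vertical axis) by the length of the coding segment that holds the centre (horizontal axis, bp). Points are H82 (blue) and H146 (orange), and bars are 95% Poisson intervals for counting error. Both lines peak at 500 to 999 bp (186 and 161 per Mb).

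Regions of a single line were then compared with each other. The 989 exon regions found in H82 only were 338 bp wide at the median, against 302 bp for the 557 found in H146 only, a difference of 36 bp (SE 12.5, adjusted permutation p = 0.179). Their mean GC content was 58.2% in H82 and 53.6% in H146, a difference of 4.62 points (SE 0.828, permutation p = 0.0274, adjusted 0.0521), higher in H82 on 16 of 22 chromosomes. The mean share of coding bases was 60.2% and 60.5%, a difference of -0.36 points (SE 1.69, permutation p = 0.819, adjusted 0.887). Shared exon regions were 515 bp (H82) and 533 bp (H146) wide at the median, with a mean GC content of 57.9% and 58.0%. Line-only intron regions differed in the same direction, with a mean GC content of 48.4% in H82 and 46.6% in H146 and median widths of 381 and 319 bp.

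Exon regions were spread over many genes. Of 15122 protein-coding genes with eligible CDS, 1862 hosted at least 1 region in H82 and 1555 in H146, which is 12.3% and 10.3% of them, the background for every list below. In all 2516 genes were hosts, 901 of them in both lines, which is 48.4% of H82 hosts and 57.9% of H146 hosts. Most hosts held a single region (1552 in H82 and 1319 in H146), and 82 and 50 genes held 3 or more. Of the 1078 regions in genes that were hosts in H82 only, 301 still overlapped an H146 region that was not counted in that gene, and of the 711 in genes that were hosts in H146 only, 300 overlapped an H82 region. The share of hosts climbed with coding length, from 4.30% (H82) and 3.52% (H146) of genes with under 500 eligible coding bases to 36.3% and 33.9% of those with 4000 or more. Density went the other way, falling between the same classes from 165 to 104 regions per Mb of CDS in H82, and in H146 from 133 to 90.04. Hosts had a region within 1000 bp of the gene's start in 86.3% of cases in H82 (84.7 to 87.8) and 82.6% in H146 (80.7 to 84.4), against 83.1% and 80.1% of all genes with eligible CDS.

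Among the genes with the most regions were several that code for giant proteins. RYR1, the calcium release channel of skeletal muscle, held 5 regions in H82 and 6 in H146, and the region on its exon 28 had the same 394 bp in both lines. FCGBP, which codes for a mucin-like protein, held 5 and 6, and SPTBN4, a spectrin of axons, 4 and 6. On SPTBN4 the regions at exons 16, 21, 23 and 31 were listed in both lines, and those at exon 13 and at a non-canonical exon in H146 only. AHNAK2, which codes for a giant scaffold protein, had 5 regions in each line, as did the mucin gene MUC5B. MUC5AC, OTOG, KIAA1614 and EPPK1 held 4 in H82 and 5 in H146, and HMCN2, ARFGEF3 and ZNF142 held 5 and 4. On ZNF142 36.9% of eligible coding bases were covered in H82 and 38.8% in H146, against 0.291% and 0.786% of its eligible intron bases. In SPTBN4 these shares were 32.6% and 49.0% of coding bases and 8.90% and 7.14% of intron bases.

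**Figure D4:**
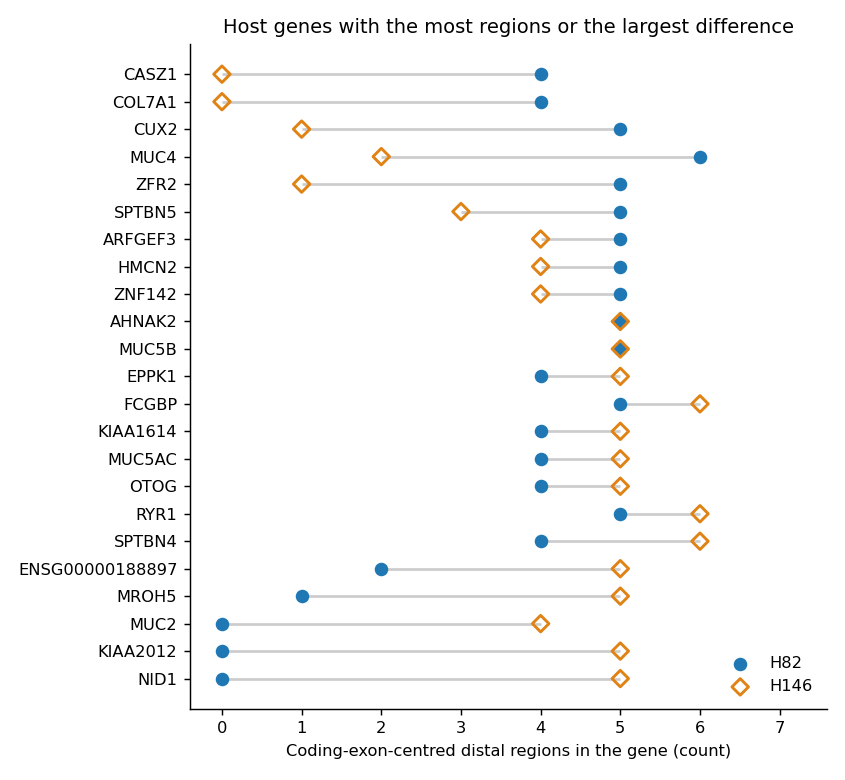
Number of coding-exon-centred distal regions per gene (horizontal axis, count) in H82 (blue discs) and H146 (orange open diamonds), for genes with many regions in either line and those with the largest difference. Lines join the counts of a gene. RYR1 has 5 and 6, and CASZ1 (4 and 0) and NID1 (0 and 5) stand at the ends.

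Other genes were hosts mainly in H82, and these were chosen for their difference, so the counts are a description. MUC4 held 6 regions in H82 and 2 in H146, and 5 of the 6 lay in exon 2, whose 48-base repeats are printed above, so that reads there could come from several places in the exon. CUX2, which codes for a homeobox factor of neurons, held 5 and 1, at exons 15, 16, 17, 21 and 22, and 47.6% of its eligible coding bases were covered in H82 against 17.4% in H146. ZFR2, a zinc-finger RNA-binding gene, held 5 and 1. COL7A1, the collagen of anchoring fibrils, held 4 regions of 218 to 381 bp in H82 and 0 in H146, none of which overlapped an H146 region. CASZ1, which codes for a zinc-finger factor, held 4 and 0, and its eligible coding bases were covered to 47.3% and 0%. Its introns differed in the same direction, 41.7% against 2.05%. SPTBN5 held 5 and 3.

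Genes that were hosts mainly in H146 were NID1 and KIAA2012 (0 in H82 and 5 in H146 each), MROH5 (1 and 5), MUC2 (0 and 4) and a gene listed only as ENSG00000188897 (2 and 5). MUC2 shows the effect of placing a region by its centre: all 4 of its H146 regions overlapped H82 regions, and 56.7% of its eligible coding bases were covered in H82 and 53.1% in H146. KIAA2012 differed in part, with 2 of 5 regions overlapping H82 and 35.3% of coding bases covered in H146 against 19.3% in H82. In NID1 the difference was in the sites themselves. Its 5 H146 regions were 215 to 333 bp wide and lay on coding exons 4, 7, 8, 11 and 14, and 1 of them, on exon 7, overlapped an H82 region. In H146 36.3% of its eligible coding bases were covered, against 5.72% in H82. The rest of the gene differed too, with 24 H146 and 10 H82 regions along the gene and 14.6% and 5.84% of intron bases covered, and both lines had a region over its start.

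**Figure D5:**
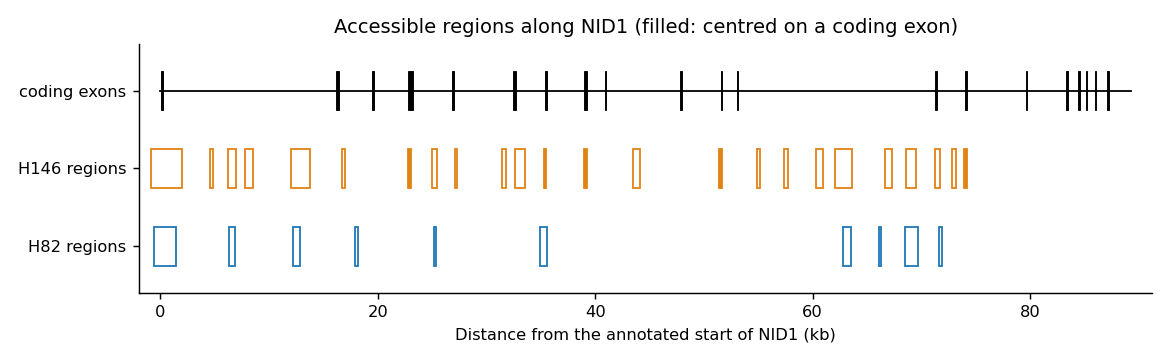
Map of NID1, with distance from the annotated gene start in kb on the horizontal axis and rows for its 20 coding exons (black), the H146 regions (orange) and the H82 regions (blue). Filled boxes are regions centred on a coding exon over 2000 bp from any TSS, open boxes the others. H146 has 24 regions, 5 of them filled, and H82 has 10, with 0 filled.

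The lists of genes that the study follows are short. Of the neuroendocrine genes, 10 of 15 had eligible CDS, and 3 were hosts in H82 (30%) and 2 in H146 (20%), beside the background of 12.3% and 10.3%. DLL3, a Notch ligand found on SCLC cells, held regions of 786 and 1967 bp in H82 and of 1776 bp in H146, the wider ones on exon 7 in both lines. FOXA1, a forkhead factor, held 1 region on its last exon in each line, of 1833 bp in H82 and 2984 bp in H146. MYT1, a neural zinc-finger factor, held an H82-only region of 249 bp on exon 7. Of the low-neuroendocrine genes, 7 of 9 had eligible CDS, and 2 were hosts in H82 (28.6%) and 3 in H146 (42.9%). REST had its 262 bp in both lines, which lay 18370 bp from the nearest TSS. NOTCH1 held regions of 461 bp, all coding, and 1139 bp in H82 only, NOTCH2 a region of 285 bp in H146, and WWTR1, a Hippo-pathway coactivator, one of 956 bp in H146. Both of the latter overlapped an H82 region. The median count per gene was 0 in these lists, as over all genes with eligible CDS.

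Of the ERBB receptors and their ligand NRG1, 4 of 5 genes had eligible CDS and NRG1 alone was a host, with a region of 680 bp in H82 of which 16.8% was coding. That region overlapped an H146 region, and 5.21% of the eligible coding bases of NRG1 were covered in H82 and 4.66% in H146. Among SWI/SNF subunit genes, whose products form the remodelling complex that FHD-286 targets, 4 of 24 were hosts in H82 (16.7%) and 3 in H146 (12.5%). ARID1B, a subunit that binds DNA, had regions on exons 13 and 18 in both lines, of 473 and 352 bp in H82 and 487 and 335 bp in H146. SMARCC2, a core subunit, had the same 230 bp on exon 21 in both lines and a further 335 bp on exon 27 in H146. BICRA and SS18L1 were hosts in H82 only, with regions of 274 and 200 bp, and PBRM1 in H146 only, with 1121 bp.

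Some families of long genes had shares of hosts above the background. ADAMTS proteases, which cut the extracellular matrix, were hosts in 12 of 23 genes in H82 and 11 in H146, laminins and fibrillins of the matrix in 7 of 14 in each line, and ankyrins and spectrins of the membrane skeleton in 5 and 6 of 9. These genes are long, with medians of 2763, 3887 and 4810 eligible coding bases against 842 over all genes. Per Mb of eligible CDS the counts were 255 and 192 for ADAMTS genes, 232 and 139 for laminins and fibrillins, and 298 and 298 for ankyrins and spectrins, beside 123 and 101 over all genes. In these values by gene, bases in overlapping genes count once for each gene. That gives 18692.8 kb over all genes, against 17.3 Mb when each base counts once. ADAMTS4, ADAMTS7, ADAMTS8 and ADAMTS10 held 1 or 2 regions in each line, LAMA2 held 3 in H82 and 2 in H146, FBN2 3 and 1, and LAMA3 2 and 1. ANK2 held 1 in each line.

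Collagen genes were hosts in 16 of 41 genes in H82 (39.0%) and 8 in H146 (19.5%), with 22 and 10 regions. COL18A1 held 3 regions in H82, 1 of which overlapped an H146 region, and 0 in H146. COL6A3 held 2 in each line, and COL27A1 1 and 2. Chromosome 21, which carries COL18A1, had fewer H146 intron regions too (401 against 872 in H82). The difference between the lines was not tested for any list. Semaphorins and plexins were hosts in 7 and 4 of 25 genes, with SEMA5B at 2 and 1, PLXNA1 and PLXNA2 at 1 in each line, and PLXNA4 at 1 and 0. The PLXNA4 region of H82 overlapped an H146 region. Mucins, whose repeats limit the placing of reads, were hosts in 6 and 8 of 16 genes, MUC12 among them with 3 and 2 regions. The Notch receptors and LRP family were hosts in 4 and 6 of 13, with LRP1 at 3 and 2 and LRP1B and NOTCH3 at 2 in each line. Axonemal dyneins and kinesins were hosts in 14 and 11 of 48, with DNAH17 at 3 in each line, DNAH10 at 3 and 2, DNAH2 at 3 and 1, and KIF19 at 2 and 3. All these families are long, with medians of 1691 to 5539 eligible coding bases against 842 over all genes. Per Mb of eligible CDS, collagens had 180 and 81.9 regions, semaphorins and plexins 200 and 99.8, and mucins 132 and 145. The Notch and LRP list had 145 in each line, and axonemal dyneins and kinesins 116 and 77.1. All genes had 123 and 101.

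Channels and chromatin genes followed. Voltage-gated calcium and sodium channels were hosts in 6 of 19 genes in each line, and CACNA1G held 2 and 3 regions, CACNA1S 1 and 3, and CACNA1H and SCN3A 1 in each, at 76.9 and 110 regions per Mb. Potassium channels were hosts in 11 and 10 of 81, with KCNH4 at 1 and 2 and KCNA4 and KCNH3 at 1 in each line. The chromatin genes of the KMT2 and CHD families were hosts in 4 of 14 in each line, with CHD5 and CHD6 at 2 and 0, KMT2A at 0 and 2, and KMT2D at 1 in each. Per Mb they had 147 and 122 regions, beside 123 and 101 over all genes. The CELSR and FAT cadherins were hosts in 2 of 7 in each line, CELSR2 in both, CELSR1 in H82 and FAT3 in H146, at 36.7 regions per Mb in each line.

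ZNF genes and olfactory receptors had fewer regions per Mb than all genes together. Among ZNF genes 39 of 465 were hosts in H82 (8.39%) and 34 in H146 (7.31%), with 68.0 and 58.5 regions per Mb of eligible CDS. ZNF831 held 4 in each line, ZNF469 4 and 2, and ZNF407 1 and 2. Olfactory receptors were hosts in 5 and 8 of 124 genes, at 47.6 and 76.1 regions per Mb. OR10AC1, OR2T2, OR2T12 and OR51G2 had a region in both lines. Clustered protocadherins, with 46 genes and a median of 2923.5 eligible coding bases, had 3 hosts in H82 (PCDHAC2, PCDHB12 and PCDHGA6) and 1 in H146 (PCDHAC2). Their 18.6 and 6.20 regions per Mb cannot be set against other genes. Genes of these clusters overlap, so their 161 kb of eligible CDS holds shared bases more than once, while each region was given to 1 gene. HOX genes had 0 hosts among 10 with eligible CDS, which amounted to 3.89 kb. Reads from close copies cannot be placed with certainty, so the counts of these families and of OR2T2 and OR2T27 above are uncertain.

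Short motif words were counted on both strands of the central 200 bp, where a region holds its centre. CAGGTG occurred in 30.7% of H82 exon regions (28.8 to 32.6) and 33.2% of H146 exon regions (31.1 to 35.3), against 21.7% and 26.5% of intron regions and 22.1% and 26.1% of all regions. CAGCTG occurred in 23.7% and 23.4%, against 16.4% and 16.6% of intron regions and 16.5% and 16.9% of all regions. Both are forms of the E-box, which basic helix-loop-helix and zinc-finger E-box factors bind. CAGATG, another form, occurred in 18.4% and 16.6%, against 21.04% and 17.3% of intron regions and 19.4% and 15.9% of all regions. AT-rich words were scarce on exons. TAATCC, a word bound by OTX factors, occurred in 4.21% of H82 and 2.44% of H146 exon regions, against 18.1% and 8.33% of intron regions and 15.8% and 7.40% of all regions. TGTTTAC, a forkhead word, occurred in 1.04% and 1.80% (introns 4.03% and 6.01%, all regions 3.64% and 5.29%), and TGACTCA, an AP-1 word, in 2.74% and 2.86% (introns 5.27% and 6.10%, all regions 4.89% and 5.54%).

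The CTCF word was about as common on exons as on introns, 1.39% and 2.07% against 1.35% and 1.93%, and 1.35% and 1.85% of all regions. It was present in 28 of 1313 shared and 4 of 989 H82-only exon regions, and in 32 of 1329 shared and 7 of 557 H146-only ones. Base composition differs between exons and introns, so the shares of these words describe the sequence and name no bound factor. No share was tested.

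Along the genome, H82 had more exon regions on 16 chromosomes and H146 on 6, and the ratio of all exon regions was 1.22 beside 1.18 for all regions. The ratio was highest on chromosome 21, with 35 H82 and 5 H146 regions, and on chromosome 15, with 77 and 35 (a ratio of 2.2). For intron regions these chromosomes had ratios of 2.17 and 1.99. Chromosome 18 went the other way, with 52 H82 and 60 H146 exon regions (0.867, introns 0.782), and 98.1% of its H82 exon regions were shared, the highest share of any chromosome. Exon regions thus followed introns on chromosomes 15 and 18 and stood further apart on chromosome 21, where the H146 count is small. DNA copy number was not measured, and its part in these counts was not tested.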

How the data were processed

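Per the labels and the study's methods, the authors trimmed ATAC-seq reads with Trim Galore 0.4.4, aligned them to hg38 with Bowtie2 2.3.4, removed duplicates, called peaks with MACS2 in each sample, removed blacklisted sites and merged peaks lying within 500 bp into 1 atlas per line. The deposited atlases used here list chromosome, start and end, without counts, signal or sample, and with 0 columns of other per-sample values. Depth is therefore unknown, and pooling over libraries means that more or deeper libraries can add regions.

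Centres, overlaps, GC content and coding bases were computed with Python 3.11.15, numpy 2.4.6, pandas 2.3.3 and scipy 1.17.1 from hg38 and GENCODE release 44, and plotted with matplotlib 3.10.9. Eligible bases meet the same distance limits as the centres. For a single gene or a list, all eligible coding bases within the gene's span were counted, also those of genes that overlap it. Exon and intron regions were compared by a two-sided sign-flip permutation of the 22 chromosomes' differences (100000 resamples, seed 1), with jackknife standard errors and Benjamini-Hochberg adjustment over 15 results. The scripts were tested on simulated data. Chromosomes are not cultures, so p-values say nothing of the spread between cultures. Wilson and Poisson 95% intervals cover counting error only. The text names the 10 genes with the most regions per line, the 5 with the largest excess in each line, the 3 widest regions per line, hosts among the genes the study follows and up to 4 genes per family. Printed sequences are up to 3 per class of at most 300 bp, preferring listed hosts and then coding share, and the others are said to be chosen later. The regions and lists were chosen with earlier results of these data known. FHD-286 and untreated libraries could not be compared, and chromosome X stayed out of the tests. Some genes that this rule names are not reported here.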

Additional observations from a re-analysis of the deposited data

Results flagged for a closer look

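Chromosome X lay outside the comparisons and also held distal regions centred on coding exons, 43 in H82 and 28 in H146, which is above the 3 counts that a count of 0 would allow. Of these, 44.2% and 64.3% overlapped the other line. Their density was 57.9 and 37.7 per Mb of eligible coding sequence, against 39.7 and 25.1 per Mb of eligible intron. The median width was 386 and 350 bp, and the mean GC content 56.0% and 56.4%. These values were not tested.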

How the results depend on the processing

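No paired analysis was possible because the atlases pool all libraries of a line and carry no replicate. Leaving out a replicate was not possible either. Under the alternatives set at the start, 65 values kept their direction and their side of the threshold or, for counts of regions, stayed close to the main count. Another 9 reversed direction, 8 newly passed the threshold, 1 no longer passed it, and 6 counts of regions moved further. Under those added after seeing the data, 16 values kept both, 5 reversed, 1 newly passed and 2 no longer passed. The number of regions was 1305 in H82 and 1090 in H146 over 5000 bp from any TSS, and 962 and 788 at a width of at least 500 bp. It was 1385 and 1085 when 50% of a region's bases had to be coding, in place of the centre rule. Added alternatives that held GC content alike gave density log2 ratios of -0.210 in H82 and -0.177 in H146 in windows of about 200 bp. In windows of about 1000 bp these were 0.016 and 0.071. For sharing, only windows of about 200 bp were used, with differences of -0.149, -2.59 and, between the lines, 2.44 points. Without chromosome 21, also added, the H82 sharing difference was 3.92 points and passed the threshold. With 50% coding bases it was -1.08 points and the H146 one 0.139 points. The width differences in that setting, which itself picks narrow regions, were -126 and -134 bp, and the GC difference between the lines was 0.285 points. With reciprocal overlap the sharing differences were 0.0033 and 0.0524 points. The sharing difference between the lines was 0.750 points beyond 5000 bp. When 50% reciprocal overlap counted as sharing, it was -0.0491 points (SE 1.51), though positive on 17 of 22 chromosomes. The test, which weighs chromosomes equally, passed the threshold there (adjusted permutation p = 0.0281), so this p does not belong to the negative pooled value. The width difference was -43 bp in H146 beyond 5000 bp, no longer past the threshold, and 44.5 bp in H82 and 22 bp in H146 at 500 bp or wider; between the lines it was -3 bp beyond 5000 bp. The density difference between the lines was 0.0027 with canonical coding sequence and 0.0372 at 500 bp or wider. The coding share of line-only regions differed by 3.48 points beyond 5000 bp and 0.00984 points with canonical coding sequence. Some results newly passed the threshold: the GC difference between the lines with canonical coding sequence (0.792 points) and without chromosomes 8 and 14 (0.699), the GC difference of line-only regions beyond 5000 bp (5.31), with canonical coding sequence (4.79), at 500 bp or wider (4.72) and with reciprocal overlap (2.18), and their width difference at 500 bp or wider (118.5 bp). The cause was not tested, other than that fewer regions entered the stricter settings.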
